A study of Drosophila melanogaster with 3 samples.

Results

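The larval serum protein genes Lsp1alpha, Lsp1beta, Lsp1gamma and Lsp2 and the fat body protein genes Fbp1 and Fbp2 were followed in 3 pools of cells, described to GEO as sorted, from the Drosophila eye-antennal disc (EAD). They were chosen by gene symbol, and all 6 were among the 15603 genes of the deposited expression table. The first library holds GFP+ cells of RasV12; scrib-/- tumors. GFP- cells of such tumor-bearing discs, the tumor microenvironment (TME), make up the second. The third holds GFP+ cells of GMR>GFP control discs. Larvae of the tumor and TME libraries carried ey-flp, UAS-RasV12, an Act>y+>Gal4 cassette with UAS-GFP, the scrib2 allele on an Frt82B chromosome and tubGal80 on its homolog, in a y,w background, and the control genotype is given as GMRGFP only. Each library came from 50 discs of wandering larvae at Day 6, and there was 1 library per group, so no difference has a replicate check and no p-value can be given. Tumor clones arise where ey-flp is active, in the eye and antenna, whereas GMR-Gal4 labels cells behind the morphogenetic furrow. The tumor and control sorts are therefore not the same region of the disc. The paper states that its ey-flp clone system (EyMARCM) also makes clones in the optic lobes of the brain. Whether the sorted tissue held such clones was not tested. GFP- cells can be any unlabeled cell of the disc or attached to it.

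The fat body of the larva does much of the work of a liver and of a fat store. Late in larval life it secretes the larval serum proteins, large storage proteins of the hexamerin family, into the hemolymph, and then takes them up again under the control of the steroid hormone ecdysone as a reserve of amino acids for metamorphosis. Lsp1alpha, Lsp1beta and Lsp1gamma encode the subunits of serum protein LSP-1, and Lsp2 encodes LSP-2. Fbp1 encodes the fat body receptor through which LSP-1 is taken up, and Fbp2 encodes a fat body protein related to alcohol dehydrogenase. The genes are textbook products of the fat body and not of imaginal discs, and the 3 libraries were compared here as a measure of fat body RNA.

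FPKM counts fragments scaled to transcript length and library size. Low values move in steps of whole fragments, and the steps gave depths of about 1840579 fragments from tumor cells, 11006771 from TME cells and 1763054 from control cells, so the TME library was sequenced 6.24 times as deeply as the control. Of 10 EAD genes (such as hth, toy, ey and eya), all 10 were above 5 FPKM in each library. Of 10 genes of cells behind the furrow (such as gl, B-H1, sev and B-H2), 3 were above 5 FPKM in tumor cells, 4 in TME cells and 1 in control cells, and their summed FPKM was 43.1, 63.0 and 29.8 in that order. Of these 10 genes, gl, B-H1 and lz were called higher in TME cells than in control cells (lz was picked out after its values were seen) and none was lower, by the rule given with the comparisons. Over all genes 6.39% were higher and 15.3% lower in TME cells. The gene gl, a regulator of photoreceptor development, was at 16.1 FPKM in tumor cells, 29.6 FPKM in TME cells and 11.6 FPKM in control cells. None was called between tumor cells and control cells. The control library, labelled GMRGFP GFP+, thus had the lowest sum of these genes, although GMR-Gal4 labels cells behind the furrow. Only 5 of the 10 genes were above 5 FPKM in any library, and gl was the highest in each. The neuronal genes elav and pros had their highest levels in control cells. In the order of tumor, TME and control, elav was at 6.79, 7.90 and 57.3 FPKM and pros at 2.47, 4.05 and 81.7 FPKM. The reason for the low sum was not tested.

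RNA of Lsp2, Fbp1 and Fbp2 was found almost only in the control library, and the LSP-1 genes were at most at 1.60 FPKM in any of the 3 libraries. Summed over the 6 genes, the level was 0.716 FPKM in tumor cells, 2.59 FPKM in TME cells and 53.0 FPKM in control cells. These sums rest on about 3, 47 and 207 fragments in that order. The control sum was 74.0 times that of the tumor and 20.4 times that of the TME. As in any bulk sample, fewer cells of a type and less RNA per cell cannot be told apart.

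**Figure D1:**
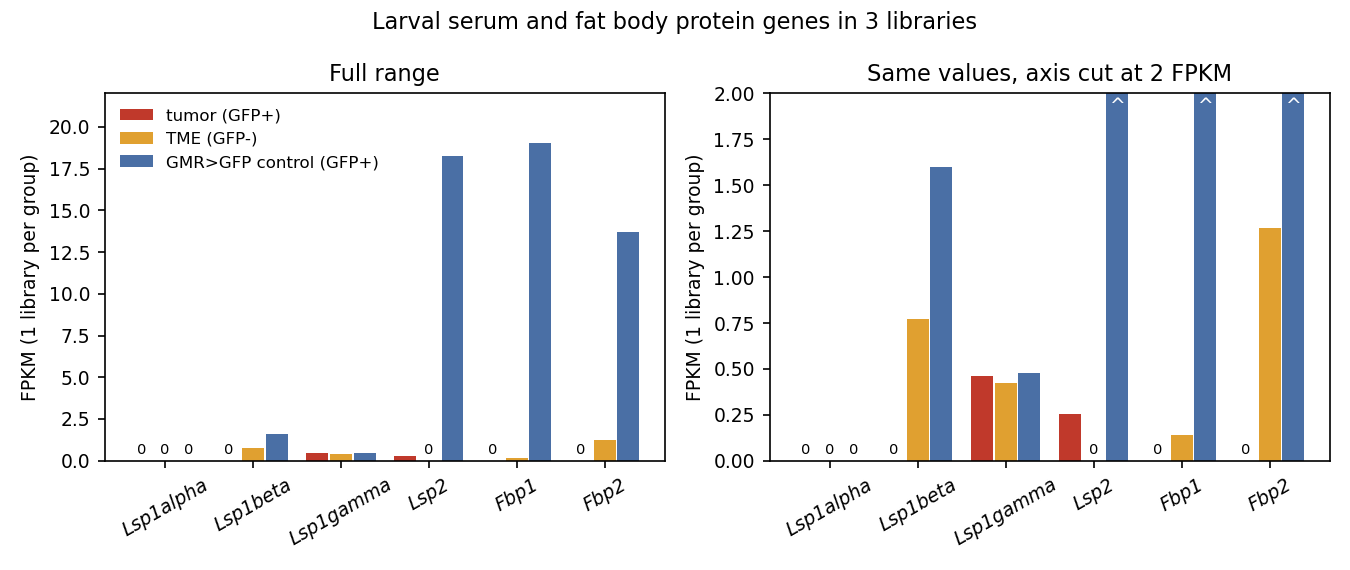
FPKM of the 6 genes (vertical axis, linear) in tumor, TME and control cells, with 1 bar per library, a printed 0 where a gene is listed at 0, and on the right the same bars with the axis ending at 2 FPKM (a caret marks a bar that goes on). The control bars of Lsp2, Fbp1 and Fbp2 stand at 18.2, 19.0 and 13.7 FPKM, while no tumor or TME bar exceeds 1.27 FPKM.

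Among the storage proteins, Lsp2 (FBgn0002565, chromosome arm 3L) was at 0.253 FPKM in tumor cells, listed at 0 in TME cells and at 18.2 FPKM in control cells. The tumor value is a single fragment and the control value about 70. The tumor to control ratio was 0.0139 (exact 95% Clopper-Pearson interval 0.000346 to 0.0799, counting error only), which makes Lsp2 72.1 times lower in tumor cells. At the control level, the tumor library would have held 72.1 fragments of Lsp2 and the TME library 437. In the annotation an antisense RNA gene lies over 2096 nt of Lsp2, and reads of the pair cannot be told apart if strand was not used in counting.

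The LSP-1 subunit genes were low in every library. They are paralogs, and how reads shared between them were counted is not stated. Lsp1beta (FBgn0002563, 2L) was listed at 0 in tumor cells and was at 0.770 FPKM in TME cells and 1.60 FPKM in control cells. The TME to control ratio of Lsp1beta was 0.480 (0.197 to 1.34), from about 21 and 7 fragments. Its interval includes 1, and both values are under the 5 FPKM that a call required. Lsp1gamma (FBgn0002564, 3L) was at 0.463 FPKM in tumor cells, 0.421 FPKM in TME cells and 0.478 FPKM in control cells, or about 2, 11 and 2 fragments. These levels were nearly the same, but the intervals were wide, from 0.0703 to 13.4 for the tumor to control ratio and from 0.192 to 8.18 for the TME to control ratio. Lsp1alpha (FBgn0002562, X) was listed at 0 in all 3 libraries. A listed 0 can be a failed estimate, since the gene of the ribosomal protein RpL15, needed in all cells, was also listed at 0 throughout.

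Of the fat body protein genes, Fbp1 (FBgn0000639, 3L) was listed at 0 in tumor cells and was at 0.139 FPKM in TME cells and 19.0 FPKM in control cells. It had about 5 fragments in TME cells and 110 in control cells, although the TME library was the deeper. The TME to control ratio was 0.00729 (0.00232 to 0.0175), so that the receptor gene was 137 times lower in TME cells. Fbp2 (FBgn0000640, 2L) was listed at 0 in tumor cells and was at 1.27 FPKM in TME cells and 13.7 FPKM in control cells. Its TME to control ratio was 0.0926 (0.0382 to 0.211), from about 10 and 18 fragments, and it was 10.8 times lower in TME cells. The end of Fbp2 shares 48 nt with the gene CG42847 on the same strand, which was listed at 0 in tumor and control cells and at 0.420 FPKM in TME cells. At the control level, the tumor library would have held 114 fragments of Fbp1 and 18.0 of Fbp2.

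By the rule of more than 5 FPKM in the higher library and at least 2 times the value in the other, which also calls genes listed at 0 in the lower library, 3 of the 6 genes were lower in tumor cells than in control cells. They were Lsp2, Fbp1 and Fbp2, and no gene was higher. Of the 7985 genes above 5 FPKM in tumor or control cells, 20.2% were lower and 12.4% higher in tumor cells. The same 3 genes were lower in TME cells than in control cells, and none was higher, where 15.3% of 7934 genes were lower and 6.39% higher in TME cells. The other 3 genes were below 5 FPKM in every library and could not be called. These comparisons share the control library and are therefore not independent of each other. The median difference of log2 (FPKM + 1) over the 6 genes was -2.63 for tumor minus control and -1.63 for TME minus control, beside -0.02 and -0.12 over all genes above 5 FPKM in either library of the pair.

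Between the tumor and the TME, none of the 6 genes was called, beside 15.2% of 7294 genes called in either direction. None could have been, since all were below 5 FPKM in both libraries. The median difference of log2 (FPKM + 1), tumor minus TME, was -0.09, and it was 0.15 over all genes above 5 FPKM in either library. At the TME level, the tumor library would have held 3.47 fragments of Lsp1beta, 1.66 of Fbp2 and 0.827 of Fbp1. A lower level of Fbp2 and Fbp1 in tumor cells was therefore not detectable at this depth. For Lsp1beta, listed at 0 in tumor cells, a lower level was at the edge of what could be detected and was not tested. At the tumor level of Lsp2, itself a single fragment, the TME library would have held 6.06 fragments, and Lsp2 was listed at 0 there. Lsp1gamma was the only gene above 0 in both, with a tumor to TME ratio of 1.10 (0.119 to 5.05).

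The make-up of the summed level also differed between libraries. In the TME, Lsp1beta and Lsp1gamma together gave 45.9% of the summed FPKM and Lsp2, Fbp1 and Fbp2 gave 54.1%. In the control, the LSP-1 genes gave 3.92% and the other genes 96.1%. In fragments, the TME held about 32 from the LSP-1 genes and 15 from the others, and the control about 9 and 198. The control to TME ratio of summed FPKM was 1.75 for the LSP-1 genes and 36.3 for the others. Counting error is large in these sums, and the difference between the ratios was not tested. The tumor library held 3 fragments in all and allows no such comparison.

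Other genes that the larval fat body uses did not move as a group. Of 14 such genes, 3 were lower in tumor cells than in control cells and 3 were higher, while 3 were lower in TME cells than in control cells and none was higher. Only 10 of the 14 were above 5 FPKM in any library and could be called. Over all genes above 5 FPKM in either library of the pair, 20.2% were lower and 12.4% higher in tumor cells. In TME cells 15.3% were lower and 6.39% higher. With 10 genes these counts do not set the list apart. The 3 lower genes were the same in both comparisons, and they are named here after their values were seen. Adh (alcohol dehydrogenase) was at 2.38 FPKM in tumor cells, 7.79 FPKM in TME cells and 18.3 FPKM in control cells. Tsf1, which encodes the iron carrier transferrin of the hemolymph, was at 0.294 FPKM in tumor cells, against 1.69 FPKM in TME cells and 8.45 FPKM in control cells. Obp99b, of the odorant-binding protein family, was listed at 0 in tumor cells and was at 0.203 FPKM in TME cells and 10.2 FPKM in control cells. The TME to control ratio was 0.426 (0.273 to 0.683) for Adh, 0.200 (0.118 to 0.341) for Tsf1 and 0.0199 (0.000449 to 0.149) for Obp99b, the last from 1 and 8 fragments.
The genes of the lipid carriers of the hemolymph were below 5 FPKM in every library and were not called, but they lay on the same side. Rfabg, which encodes the apolipoprotein of lipophorin, was at 0.0537 FPKM in tumor cells, 0.206 FPKM in TME cells and 3.57 FPKM in control cells. Its TME to control ratio was 0.0576 (0.0341 to 0.0940), from about 23 and 64 fragments. CG15828, the lipid transfer particle gene Apoltp, was at 0.0413, 0.0620 and 1.63 FPKM in that order, with a TME to control ratio of 0.0379 (0.0161 to 0.0798). Both were likewise picked out after their values were seen.

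The 3 genes higher in tumor cells than in control cells encode enzymes. Pepck, the enzyme that commits carbon to gluconeogenesis, was at 249 FPKM in tumor cells, 57.6 FPKM in TME cells and 34.8 FPKM in control cells. Its tumor to control ratio was 7.16 (6.01 to 8.57). The fatty acid synthase gene CG3523 was at 224, 74.1 and 89.6 FPKM and the desaturase gene desat1 at 253, 136 and 105 FPKM, in the order of tumor, TME and control. Lpin, a lipin of triglyceride synthesis, was at 73.7, 56.5 and 45.7 FPKM and was not called. CG6188, the glycine N-methyltransferase gene, was listed at 0 in all 3 libraries. Of the remaining genes, none called against the control, the lipase gene bmm was at 40.9, 31.9 and 47.6 FPKM, Mtp at 35.1, 12.4 and 23.5 FPKM, Lsd-1 at 3.22, 4.41 and 5.47 FPKM and Tps1 at 0, 0.325 and 0.812 FPKM, in the same order.

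**Figure D2:**
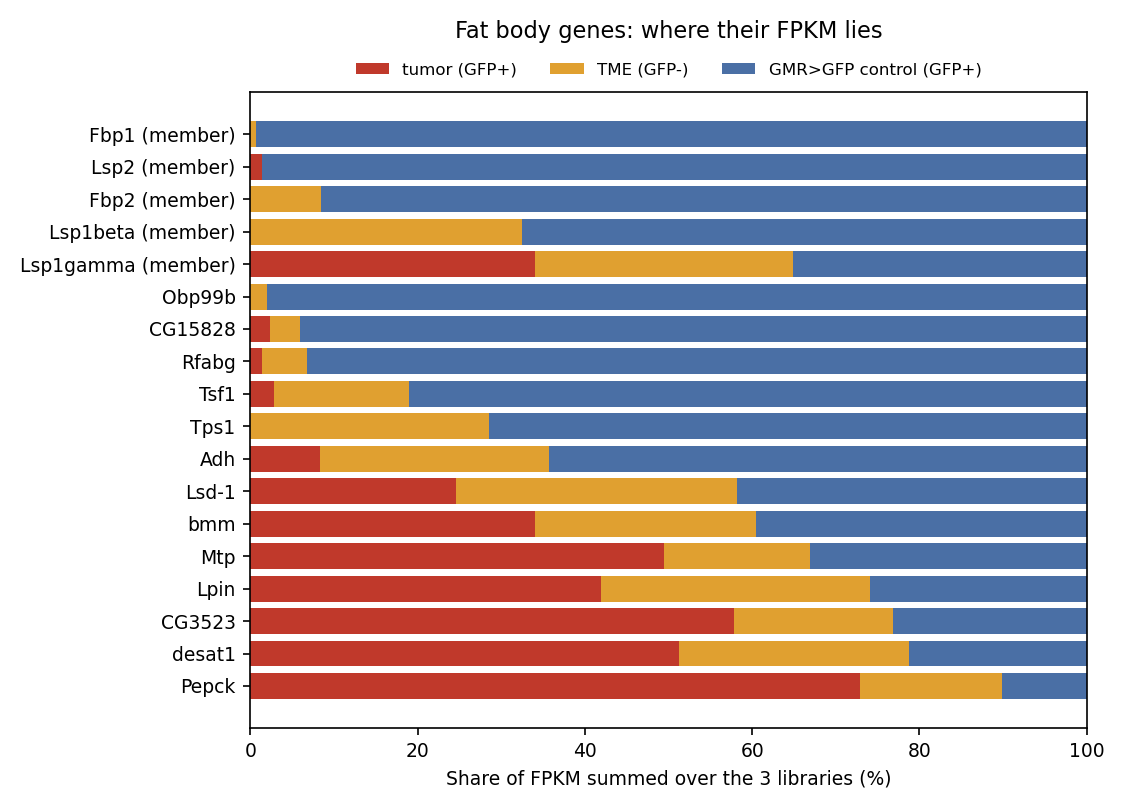
Share of each gene's FPKM, summed over the 3 libraries, that lies in tumor, TME and control cells (horizontal axis, percent), for 5 of the 6 genes (marked member) and for 13 of 14 other fat body genes above 0 in any library. The control holds 99.3% of Fbp1, 98.6% of Lsp2 and 91.5% of Fbp2, 67.6% of Lsp1beta and 35.1% of Lsp1gamma, and 10.2% of Pepck.

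Of 6 regulators of the fat body, 2 were lower and 1 higher in tumor cells than in control cells, and 1 was lower in TME cells than in control cells. Over all genes 20.2% were lower and 12.4% higher in tumor cells and 15.3% lower in TME cells, and with 6 genes these counts do not set the regulators apart. HLH106, the gene of the lipid regulator SREBP, was at 160 FPKM in tumor cells, 76.4 FPKM in TME cells and 87.6 FPKM in control cells and was not called against the control. Picked out after its values were seen, svp, which encodes a nuclear receptor, was lower in both, at 2.58 FPKM in tumor cells, 4.38 FPKM in TME cells and 14.8 FPKM in control cells. The GATA factor gene srp, which acts in fat body and in hemocytes, was at 0.897 FPKM in tumor cells, 13.2 FPKM in TME cells and 17.6 FPKM in control cells. Hnf4, a nuclear receptor gene of lipid metabolism, was at 18.9, 21.4 and 15.0 FPKM in that order and was not called. The forkhead factor gene foxo, the higher one, was at 24.9 FPKM in tumor cells, against 8.51 FPKM in control cells.
Of 20 genes of the ecdysone response, 6 were lower and 3 higher in tumor cells than in control cells, and 3 were lower and none higher in TME cells than in control cells. Over all genes 20.2% were lower and 12.4% higher in tumor cells. The share lower in TME cells is near the 15.3% of all genes. The 3 genes, picked out after their values were seen as was EcR, were Eip75B, Eip78C and Eip93F. The most abundant genes of the list were ImpL2, an insulin antagonist, at 1246, 245 and 232 FPKM in the order of tumor, TME and control, ImpE2 at 21.4, 171 and 142 FPKM, the early gene br at 79.7, 123 and 124 FPKM, and ImpL3 at 210, 34.8 and 62.9 FPKM. Eip93F, a transcription factor gene of late ecdysone responses, was at 0.403 FPKM in tumor cells, 1.02 FPKM in TME cells and 14.9 FPKM in control cells, and EcR, the receptor gene, at 36.0, 28.1 and 23.1 FPKM.

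Blood cells are a tissue of the hemolymph, and 10 of the 11 genes listed for them were above 5 FPKM in TME cells and 10 in control cells. The 11 hemocyte genes summed to 46.7 FPKM in tumor cells, 546 FPKM in TME cells and 474 FPKM in control cells, and 1 was at 0 in tumor cells. Of them 9 were lower in tumor cells than in control cells, and 1 was lower and 2 higher in TME cells than in control cells. The 2 higher genes, Hml and lz, were picked out after their values were seen. The gene lz is also among the 10 genes of cells behind the furrow. Over all genes 20.2% were lower in tumor cells, and 15.3% were lower and 6.39% higher in TME cells. He, for example, was at 3.16, 131 and 168 FPKM in the order of tumor, TME and control. In the same order, Cg25C was at 6.14, 87.9 and 54.8 FPKM and vkg at 3.24, 61.8 and 36.0 FPKM, neither called between TME and control. Which cells gave the RNA of these genes was not tested. The prophenoloxidases are relatives of the serum proteins in the same superfamily and are made by blood cells. Those listed as PO45 (PPO2) and proPO-A1 (PPO1) were at 1.02 and 1.74 FPKM in tumor cells and at 131 and 119 FPKM in TME cells, against 103 and 78.0 FPKM in control cells. Both were lower in tumor cells than in control cells, and neither was called between TME and control. The third, listed as CG42640 (PPO3), was at 0.793, 2.35 and 0.816 FPKM in the order of tumor, TME and control. It was below 5 FPKM in every library and could not be called. The ratio of summed FPKM, TME over control, was 1.15 for hemocyte genes and 0.0489 for the 6 genes. The difference between these ratios was not tested.
Neuronal genes, such as pros, elav, n-syb and brp, had their highest levels in control cells. All 6 measured genes were lower in tumor cells and in TME cells than in control cells, and none was at 0. Over all genes 20.2% were lower in tumor cells and 15.3% in TME cells. They summed to 15.9 FPKM in tumor cells, 20.5 FPKM in TME cells and 282 FPKM in control cells. The part of other cell types sorted with the control cells in the levels of the 6 genes was not tested. Genes of other larval tissues that are cut away in dissection were low throughout. The 9 salivary gland genes summed to 3.29, 4.72 and 4.36 FPKM and the 14 gut genes to 1.14, 1.66 and 3.76 FPKM, in the order of tumor, TME and control. Among the salivary gland genes, the glue genes Sgs4 and Sgs5 and the genes ng1, ng2 and ng3 were listed at 0 in all 3 libraries.
Over 7 tracheal genes the sums were 1035 FPKM in tumor cells, 1047 FPKM in TME cells and 314 FPKM in control cells, most of it from verm, Gasp, serp and pio. Of the 7 genes, 4 were higher in tumor cells and 5 in TME cells than in control cells, and none was lower. Over all genes 12.4% were higher in tumor cells and 6.39% in TME cells. The tracheal identity genes trh, at 1.37, 1.24 and 2.97 FPKM, and btl, at 1.21, 1.79 and 2.19 FPKM, had their highest values in control cells, were not called, and were picked out after their values were seen. For 11 muscle genes the sums were 460, 333 and 323 FPKM, mostly from Tm1, and for 7 glial genes 302, 248 and 250 FPKM, led by nrv2. Only 5 of the 11 muscle genes were above 5 FPKM in any library. In tumor cells 2 of them were lower than in control cells (Act57B and Act87E) and 2 higher (Mlc2 and sls). In TME cells 1 was higher (sls) and none was lower. Act87E was picked out after its values were seen. Act57B was at 2.77, 24.5 and 42.3 FPKM in the order of tumor, TME and control. Of the glial genes, 3 were lower and 2 higher in tumor cells than in control cells, and 2 were lower and 1 higher in TME cells than in control cells. The shares of all genes, lower and higher, were 20.2% and 12.4% for the tumor and 15.3% and 6.39% for the TME. The glial identity gene repo was at 3.06 FPKM in tumor cells, 12.1 FPKM in TME cells and 27.5 FPKM in control cells. In the same order, gcm was at 4.21, 3.60 and 15.5 FPKM and wrapper at 0.555, 6.996 and 10.6 FPKM. Both were picked out after their values were seen. Of the 7 glial genes, repo, gcm, wrapper and loco (29.6, 40.2 and 42.5 FPKM) had their highest levels in control cells. The others, Gli (77.7, 42.5 and 21.0 FPKM), nrv2 (166, 133 and 123 FPKM) and moody (20.6, 9.69 and 9.89 FPKM, likewise picked out), had theirs in tumor cells.

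**Figure D3:**
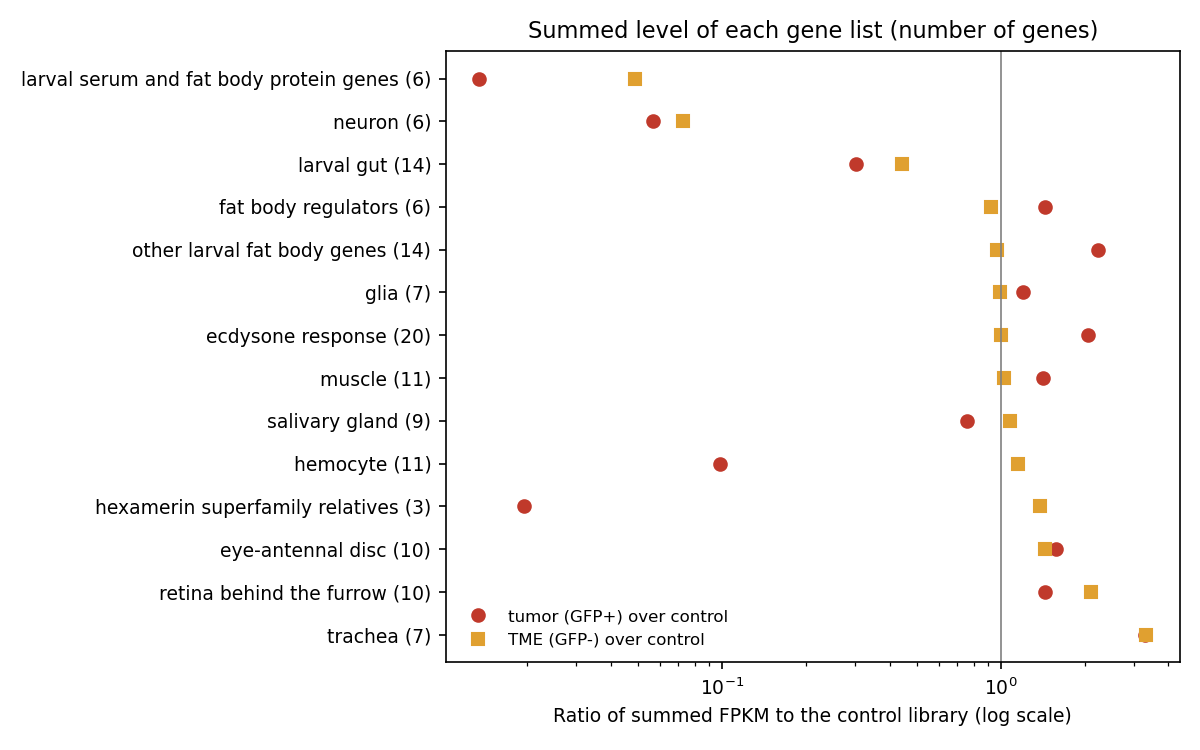
Summed FPKM of each gene list as a ratio to the control library (horizontal axis, log scale), for the tumor (circles) and the TME (squares), with the number of genes in parentheses and a line at a ratio of 1. The 6 larval serum and fat body protein genes lie at 0.0135 for the tumor and 0.0489 for the TME, the neuronal genes at 0.0566 and 0.0726, and the hemocyte genes at 0.0984 and 1.15.

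Genes with a pattern like that of the 6 were taken as protein-coding genes with more than 5 FPKM in any library and at least 91.5% of their FPKM, summed over the 3 libraries, in control cells. This share is the median over the 5 genes above 0, so that Fbp1, Lsp2 and Fbp2 meet it by construction. It was met by 231 of 7646 genes (3.02%), of which 26 were listed at 0 in both other libraries. The 10 highest in control cells were Ef1alpha100E, CG34296, CG30172, pros, Rbp6, cpx, CG42492, CG14989, n-syb and CG43324. Ef1alpha100E, a translation elongation factor gene, was at 1.34 FPKM in tumor cells, 8.65 FPKM in TME cells and 287 FPKM in control cells. Among the 10 are the synaptic genes n-syb and cpx and the neuronal factor gene pros. Ranked by control FPKM among the 231, Fbp1 was at place 56, Lsp2 at 63 and Fbp2 at 93. Likeness over 3 libraries rests on 3 values per gene.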

How the data were processed

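The design text in GEO gives FACS-sorted EAD cells and the labels Trizol extraction, while the methods of the authors describe discs isolated by hand and a Qiagen kit, and which applies is not settled. RNA was sequenced by the authors from TruSeq libraries on a MiSeq, mapped to the genome release named in their methods with the Tuxedo suite, and deposited as FPKM per gene. For the version of the suite, its annotation and the use of strand, nothing is stated in those methods, the labels or the table. Column headings assigned each of the 3 columns to its sample.

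The 6 genes, the 13 other gene lists and the alternatives were chosen with earlier results of these data known. The rule for named genes took the 6, up to 4 of each list by mean FPKM or listed at 0, and the 10 highest genes of like pattern. Genes named outside it were chosen after their values were seen.

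Depth was fitted to FPKM steps of genes with 1 transcript of 400 to 4000 nt in the Ensembl BDGP6 annotation, a later assembly than that of the authors, used for lengths, chromosome arms, overlaps and gene types only (97.1% of genes matched). Of low values, 82.6% (tumor), 78.4% (TME) and 81.5% (control) lay within 0.1 of a whole number, as did 9 of 11 values of the 6 genes. Fragments per gene used the shortest transcript. Ratios carry Clopper-Pearson 95% intervals. No ratio was taken to a 0. Steps were tested on simulated data. Software was Python 3.11.15 (scipy 1.17.1, numpy 2.4.6, matplotlib 3.10.9, pandas 2.3.3).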

Additional observations from a re-analysis of the deposited data

How the results depend on the processing

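Lsp2, Fbp1 and Fbp2 were lower in tumor and in TME cells than in control cells under ratios of at least 1.5 or 3, a floor of 10 FPKM, 1 or 0.1 added to both values, and all 3 scalings, and with no floor or 1 FPKM Lsp1beta joined them. Leaving out genes listed at 0 left 1 gene (Lsp2) for tumor over control and 2 for TME over control. For tumor over TME the count was 4 with no floor (3 lower, 1 higher) and 1 above 1 FPKM. With log2 of FPKM + 0.1 the median was -4.89 for tumor over control and -0.63 for tumor over TME, and over genes above 0 in both libraries the tumor over TME value was 0.043, from Lsp1gamma alone. Over all settings the median lay between -4.89 and -1.15 for tumor over control and between -2.15 and -0.89 for TME over control. Upper quartile scaling shifted all genes by -0.14 for tumor over control, 0.15 for TME over control and -0.29 for tumor over TME on the log2 scale, and median ratio scaling shifted the last by -0.14. The control sum was 34.0 FPKM without Fbp1. With the longest transcript the 6 genes had 51.5 fragments in the TME and 220 in the control, in place of 47.4 and 207. Of 63 alternative values, 7 were labelled as moved. Among them, the tumor over TME median of 0.043 changed sign but lay within the counting interval (-0.568 to 1.00) of the main value. The others moved by more than counting error or 1.5 times. No paired analysis was possible because each group has 1 library. Depth limits every statement on the tumor library, where 1 fragment of Fbp2 is worth 0.761 FPKM.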

Other observations

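Akh, which encodes the adipokinetic hormone of the corpora cardiaca that acts on the fat body, also met the pattern of Lsp2, Fbp1 and Fbp2 and was picked out after its values were seen. It was listed at 0 in the tumor and was at 2.88 FPKM in the TME and 36.2 FPKM in the control, with 92.6% of its summed FPKM in the control, at place 20 of the 231 genes of like pattern.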
